A study of Mus musculus with 8 samples.

Results

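The comparison described here set bone marrow cells of mir-223-/- mice carrying the vector KO_223mut against wild-type cells carrying the vector MIG (KO_223mut and WT_MIG in the sample names). It asked what stayed different, and what became different, when a copy of the microRNA gene with a changed guide strand was put into knockout cells. Both groups had 2 arrays of the 8 in the series, with the replicate numbers 2 and 3, and same-numbered arrays were paired. The other arrays were 2 of mir-223-/- cells with KO_starmut and 2 of mir-223-/- cells with MIG (KO_MIG). The sample names do not spell out the vectors. KO_223mut is read here as a miR-223 vector with a changed guide strand, KO_starmut as one with a changed passenger strand, and MIG as the empty vector, from the wording of the names and what is known of the study.

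All 4 groups came from total bone marrow of C57/BL6 mice. The marrow was prestimulated for 2 days and infected with 2 retroviruses, MSCV-Hoxa9-pgk-neomycin and MSCV-Meis1-IRES-YFP, by co-culture with virus-producing cells irradiated with 4000 cGy. YFP-positive cells were sorted and kept under 1.4 mg/ml neomycin, so the wild-type controls too were Hoxa9 and Meis1 transduced cells and not normal marrow. The design text counts 2 biological replicates, without saying whether they were separate mice or cultures, so the p-values speak only for the spread among these arrays, part of which may be technical.

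MicroRNAs are short RNAs cut from a hairpin. One strand, the guide, is loaded into the silencing complex and pairs through its seed with messenger RNAs, which are then destabilised or translated less; the passenger strand is usually degraded, but in some hairpins it also acts. miR-223 is a microRNA of the myeloid lineage, abundant in granulocytes and their precursors, and mice without it have disturbed neutrophil production. Hoxa9 is a homeobox transcription factor and Meis1 its DNA-binding partner. Together they immortalise bone marrow progenitors and drive acute myeloid leukaemia in mice.

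The mouse strands of miR-223 are shown because the vectors differ by which of them was altered, and those of miR-142a because its gene was the microRNA gene other than Mir223 that passed the test against wild type. Sequences are RefSeq's on GRCm38.p6, 5′ to 3′, with the seed (bases 2 to 8) in capitals. The Mir223 hairpin lies at chrX:96242817-96242926 and that of Mir142 at chr11:87756864-87756927, both on the plus strand. The labels do not give the altered bases of the vectors.
miR-223-3p (guide): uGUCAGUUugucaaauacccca
miR-223-5p (passenger): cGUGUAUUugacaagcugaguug
miR-142a-5p: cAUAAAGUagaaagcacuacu
miR-142a-3p: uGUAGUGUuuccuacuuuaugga
The 4 seeds differ from each other, so neither strand of miR-223 shares its seed with the other or with miR-142a.

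The values are log2 signals of 28853 probe sets, each with its own median over the 8 arrays taken off. A value of 1 is therefore 2-fold above that probe set's median, and levels of different genes cannot be compared. The array medians lay between -0.0126 and 0.0109, and the SD of a probe set between the arrays of a group was 0.118 to 0.131. Genes are named through the authors' deposited list of 1264 probe sets that differed among the groups, which was chosen on these same arrays. Of these, 1081 probe sets carry a single symbol (1049 genes), so the share of named genes past a test is higher than among all probe sets, and a named gene's difference is not independent of how it came to be named.

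The probe set of Mir223 itself (with F630028O10Rik) stood at 0.01 and 0.04 in KO_223mut, against -0.98 and -1.07 in WT_MIG. It was higher in KO_223mut by 1.04 ± 0.08 (SE, adjusted p = 0.00122). The arrays labelled KO_MIG, with no miR-223 vector in their name, were at -0.01 and 0.14, so arrays with and without a miR-223 vector in their name stood alike, above wild type. A knockout would lower a probe set inside the deleted segment. The rise seen here is not the direction that such a probe set would show. The position of its probes relative to that segment was not used here, so this value cannot serve as a check of the label either way. Each group below is the group as labelled.

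Of the 28853 probe sets, 732 (2.54%) differed between KO_223mut and WT_MIG at an adjusted p under 0.05 (limma with the replicate number as a block, Benjamini-Hochberg adjustment over all probe sets, two-sided). Without the block 208 (0.721%) passed, all of them among the 732. More fell than rose: 482 (1.67%) were lower and 250 (0.866%) higher. In 721 of the 732 the values of the 2 groups did not overlap, a property that 35.7% of all probe sets share when 2 arrays stand against 2. At an unadjusted p under 0.05 there were 4680 (16.2%), where 1443 are given by chance. Most called differences were small, with a median size of 0.499 on the log2 scale, and 109 probe sets differed by more than 1, of which 93 were lower and 16 higher in KO_223mut. The deposited list gives a single symbol to 166 of the called probe sets, which are 157 genes, 65 probe sets higher and 101 lower. Among all 1081 single-symbol probe sets, 15.4% passed, 6.01% as higher and 9.34% as lower, and the counts below are read against these shares.

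**Figure D1:**
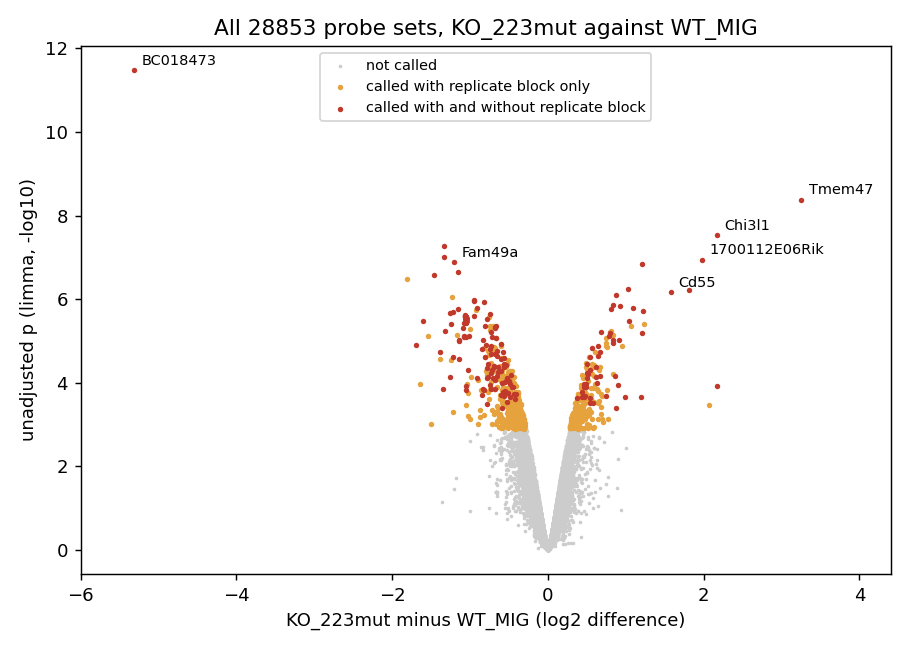
Each point is 1 of 28853 probe sets, with the log2 difference of KO_223mut minus WT_MIG on the x axis and -log10 of the unadjusted limma p on the y axis. Red points passed with and without the replicate block, orange points only with it; BC018473 at -5.31 and Tmem47 at 3.26 lie apart from the rest.

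The largest difference was a loss. BC018473, an uncharacterised transcript, read -0.07 and 0.10 in KO_223mut and 5.31 and 5.34 in WT_MIG. This is a difference of -5.31 ± 0.06 (SE), or 39.7-fold lower (adjusted p = 9.44e-08). All 6 mir-223-/- arrays lay between -0.13 and 0.10, and the wild-type arrays stood far above them.

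The largest gain was Tmem47, a tetraspan membrane protein of cell junctions. It read 0.34 and 0.14 in KO_223mut and -3.05 and -2.99 in WT_MIG, a 9.55-fold difference (3.26 ± 0.10, adjusted p = 5.99e-05). Chi3l1, now Chil1, a secreted chitinase-like protein of macrophages and neutrophils, read 0.09 and 0.14 in KO_223mut and -1.98 and -2.15 in WT_MIG. That is 4.52-fold higher (2.18 ± 0.09, adjusted p = 0.000282). In both genes the wild-type arrays stood far below all 6 knockout arrays, whatever vector these carried.

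Others followed the same form. 1700112E06Rik, now Lrmda, a leucine-rich repeat gene known from melanocytes, was at 0.13 and -0.09 in KO_223mut against -2.05 and -1.87 in WT_MIG, 3.95-fold higher (adjusted p = 0.000512). Cd55, the decay-accelerating factor that protects cells from complement, was at 0.23 and 0.03 in KO_223mut against -1.47 and -1.43 in WT_MIG, 2.98-fold higher (adjusted p = 0.00122). Mtmr9, a catalytically inactive member of the myotubularin phosphatase family, has 2 probe sets, which were higher by 1.21 ± 0.06 and 1.03 ± 0.06 (adjusted p = 0.000512 and 0.00122). The groups did not overlap in any of them.

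**Figure D2:**
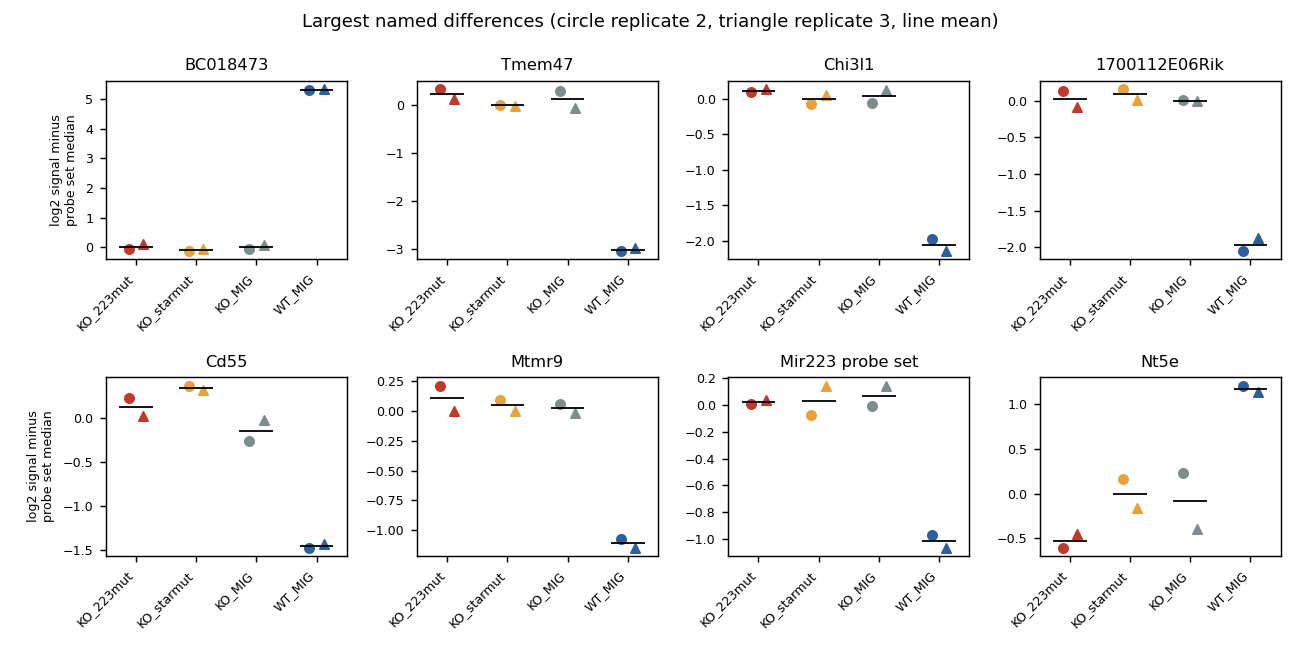
Log2 signal minus the probe set's median over 8 arrays (y axis) in each array of the 4 groups (x axis), for named probe sets with large differences and the Mir223 probe set; circles are replicate 2, triangles replicate 3, and the line is the group mean. In 7 panels the 3 knockout groups lie together and WT_MIG apart; in Nt5e KO_223mut is at the low end, at -0.60 and -0.45, with KO_MIG at 0.23 and -0.40.

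Smaller gains took in membrane proteins and regulators. Prom1, the CD133 surface protein of many stem cells, read 0.29 and -0.01 in KO_223mut against -0.78 and -0.91 in WT_MIG (0.99 ± 0.15, adjusted p = 0.0189). Slc29a1, which carries nucleosides across the plasma membrane, read 0.11 and 0.05 in KO_223mut against -0.75 and -0.77 in WT_MIG (0.84 ± 0.06, adjusted p = 0.00122). Nav1, a microtubule-binding protein first studied in neurons, rose by 0.87 ± 0.06. Each of these had KO_223mut above WT_MIG in both numbered pairs.

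Also higher were Cacnb2, a calcium channel subunit, by 0.92 ± 0.08, Cyp2j6, a cytochrome P450, by 0.86 ± 0.11, and Psg17, a pregnancy-specific glycoprotein, by 0.90 ± 0.12. D330045A20Rik, now Radx, a single-stranded DNA binding protein of replication forks, was higher by 0.93 ± 0.06. Its direct neighbour in the RefSeq gene order, the ubiquitin ligase gene Rnf128, was higher by 0.75 ± 0.11. Alcam, a cell adhesion protein chosen here after its value was seen, was higher by 0.62 ± 0.07 (adjusted p = 0.00671).

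Genes of mature myeloid cells fell more often than they rose. The list of mature myeloid markers has 8 named probe sets, of which 4 were lower, 1 higher and 3 did not pass, with a median difference of -0.502 against 0.0326 over all single-symbol probe sets. In total RNA of a cell population, fewer cells of a type and less RNA per cell cannot be told apart. Itgam, the CD11b integrin chain of granulocytes and macrophages, read -0.51 and -0.59 in KO_223mut and 0.71 and 0.48 in WT_MIG, 2.22-fold lower (-1.15 ± 0.08, adjusted p = 0.00122). Clec4d, a lectin receptor for fungal and bacterial glycolipids, read -0.32 and -0.26 in KO_223mut against 0.52 and 0.40 in WT_MIG (-0.75 ± 0.07, adjusted p = 0.00319).

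Cd68, a glycoprotein of macrophage lysosomes, read -0.21 and -0.17 in KO_223mut against 0.31 and 0.28 in WT_MIG (-0.48 ± 0.06, adjusted p = 0.00871). Cd33, an inhibitory sialic acid receptor of myeloid cells, was lower by a similar amount (-0.53 ± 0.07, adjusted p = 0.0167), a call lost without the block (adjusted p = 0.0754). Chi3l1 was the member that rose, described above. Mmp12, the macrophage elastase, had a difference of -0.56 with an adjusted p of 0.0559, Anpep, the CD13 aminopeptidase, one of 0.18 and Ncf1, a subunit of the oxidase that makes superoxide, one of 0.01. The myeloid genes thus did not move as one block.

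Some sensors of microbial RNA and danger signals were lower. Of 8 named probe sets on the list of innate sensors and signalling, 3 fell and none rose, with a median of -0.315. Tlr13, the mouse receptor for bacterial ribosomal RNA, read -0.22 and -0.20 in KO_223mut and 1.25 and 0.86 in WT_MIG (-1.26 ± 0.16, adjusted p = 0.00916). Tlr7, the endosomal receptor for single-stranded RNA, read -0.15 and -0.06 in KO_223mut and 1.01 and 1.21 in WT_MIG (-1.22 ± 0.13, adjusted p = 0.0044). Nlrp3, the inflammasome sensor, read -0.52 and -0.39 in KO_223mut and 0.39 and 0.32 in WT_MIG (-0.80 ± 0.08, adjusted p = 0.00449). KO_MIG lay below WT_MIG too, by log2 differences of -1.05 in Tlr13, -0.88 in Tlr7 and -0.46 in Nlrp3. With limma Tlr13 and Tlr7 passed in KO_MIG (adjusted p = 0.0292 and 0.028) and Nlrp3 did not (adjusted p = 0.0738). Without the block neither Tlr13 nor Tlr7 passed there (adjusted p = 0.146 and 0.087). KO_223mut and WT_MIG stood apart in all 3 genes, while the other 5 members did not pass. These were Nod1, a sensor of bacterial cell walls, at -0.33 (adjusted p = 0.0621), the cytokine gene Tnf at -0.30, the DNA sensor Aim2 at -0.13, the interleukin receptor Il1r1 at -0.08 and Marco, a scavenger receptor, at 0.05.

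Among 6 chemokine and chemoattractant receptors 1 passed. Ccr1, a receptor for inflammatory chemokines on monocytes and neutrophils, read -0.24 and -0.52 in KO_223mut and 1.02 and 0.85 in WT_MIG, 2.49-fold lower (-1.31 ± 0.11, adjusted p = 0.00168). Ccr1 was lower in KO_MIG than in WT_MIG too, by a log2 difference of -1.06 (limma adjusted p = 0.0118). The receptor for complement fragment C5a, C5ar1, differed by -0.52 with an adjusted p of 0.0621, and Ccr3, Gpr35, P2ry13 and Adora3 had differences between 0.03 and 0.13. Nt5e, the CD73 enzyme that makes extracellular adenosine from AMP, is on no list but had the largest fall after BC018473 among named genes. It read -0.60 and -0.45 in KO_223mut against 1.21 and 1.13 in WT_MIG, 3.24-fold lower (-1.69 ± 0.16, adjusted p = 0.00284).

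**Figure D3:**
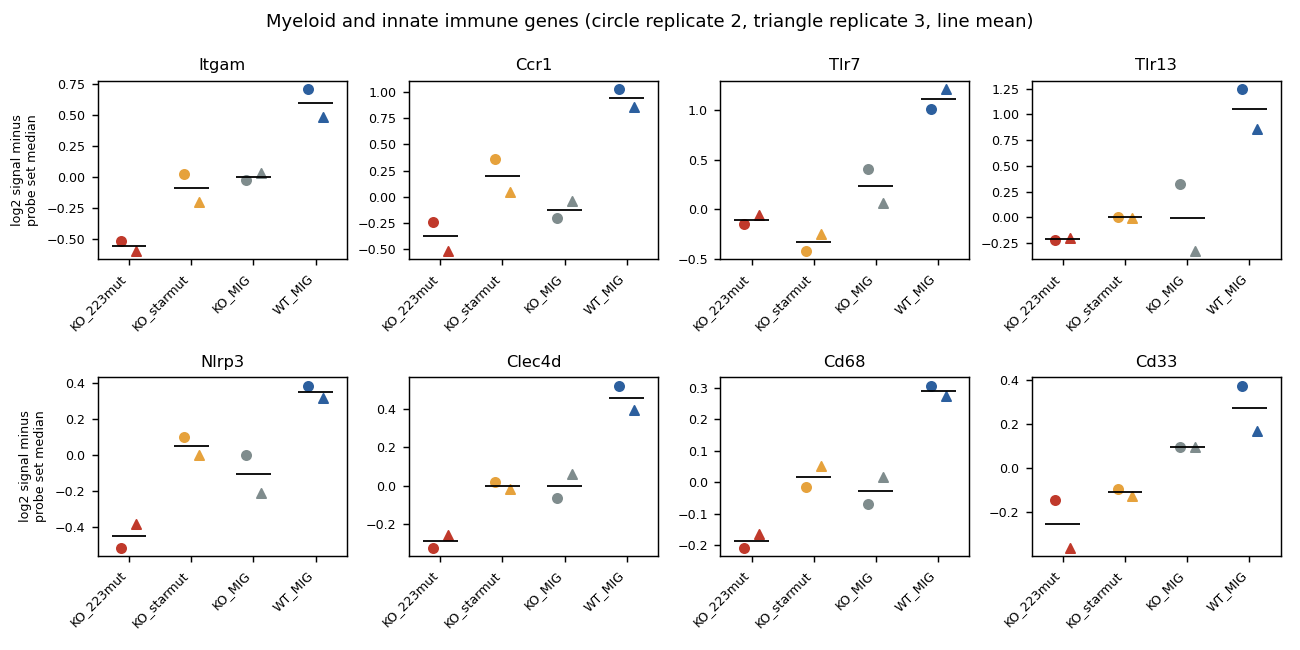
Log2 signal minus the probe set's median over 8 arrays (y axis) in each array of the 4 groups (x axis) for 8 myeloid and innate immune genes; circles are replicate 2, triangles replicate 3, and the line is the group mean. Both KO_223mut arrays lie below both WT_MIG arrays in every panel, and in Itgam, at -0.51 and -0.59, below the KO_MIG arrays too.

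On the list of glutamine, sugar and lipid metabolism, 6 of 11 named probe sets, of 5 genes, were lower, 5 did not pass and none was higher, with a median of -0.574. Mgam, maltase-glucoamylase, an enzyme that cleaves starch products and is also made by neutrophils, read -0.49 and -0.48 in KO_223mut and 1.08 and 0.87 in WT_MIG, 2.76-fold lower (-1.46 ± 0.08, adjusted p = 0.000757). Apoc2, the cofactor of lipoprotein lipase, read -0.36 and -0.30 in KO_223mut and 0.79 and 1.04 in WT_MIG, 2.37-fold lower (-1.25 ± 0.10, adjusted p = 0.00128). Glul, glutamine synthetase, fell in both of its probe sets, by 1.07 ± 0.10 and 0.83 ± 0.11. No KO_223mut value reached a WT_MIG value in these genes. KO_MIG lay below WT_MIG as well, by log2 differences of -0.88 in Mgam, -0.85 in Apoc2 and -0.89 and -0.85 in Glul. All passed with limma (adjusted p = 0.0066, 0.019, 0.013 and 0.0211), the last not without the block (adjusted p = 0.0979).

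B3gnt8, a glycosyltransferase that extends sugar chains on glycoproteins, was lower by a log2 difference of -0.95 ± 0.06, and Dhrs3, which reduces retinal to retinol, by one of -0.57 (adjusted p = 0.00122 and 0.0036). Ppargc1b, a coactivator of mitochondrial genes, had a difference of 0.20 (adjusted p = 0.173). The members that fell belong to different pathways.

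Regulators of small GTPases and G proteins moved in both directions, with 4 of 14 named probe sets lower, 2 higher and a median of -0.0502. Fgd6, an exchange factor that activates Cdc42, fell by 0.73 ± 0.06, and Rgs1, which shortens chemokine receptor signals, by 0.73 ± 0.09 (adjusted p = 0.00169 and 0.0083). Fmnl2, a formin that builds actin filaments, fell by 0.65 ± 0.08 (adjusted p = 0.00892). Fgd4, a relative of Fgd6, had a difference of -0.42 that passed only with the block (adjusted p = 0.0272, and 0.0811 without it). Both higher probe sets belong to Rassf8, a Ras-association protein (0.78 and 0.37), and the smaller difference was lost without the block (adjusted p = 0.0686). Fam49a, now Cyria, which binds Rac1 and restrains it, is off the list and fell by 1.20 ± 0.06 (adjusted p = 0.000512).

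Several further genes on no list fell among the strongest. Glyat, which couples glycine to acyl groups, had a log2 difference of -1.35 ± 0.18 (adjusted p = 0.0144). Zcchc3, a zinc finger protein that assists nucleic acid sensors, fell by 1.07 ± 0.09, Frmd4b, a FERM domain scaffold, by 1.06 ± 0.09, and Tmem171, a membrane protein, by 0.95 ± 0.06. Tnfrsf8, the CD30 receptor, and Bmx, a Tec-family tyrosine kinase, were chosen after their values were seen, and fell by 0.82 ± 0.06 and 0.81 ± 0.07. Csf1, the growth factor of macrophages, also chosen after its value was seen, read -0.16 and -0.06 in KO_223mut and 0.62 and 0.56 in WT_MIG (-0.70 ± 0.08, adjusted p = 0.00659). Csf1 was lower in KO_MIG than in WT_MIG too (-0.69, limma adjusted p = 0.0173, and 0.054 without the block). Of the macrophage genes named above, Cd68 and Itgam also fell, while Chi3l1 rose and Mmp12 did not pass.

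Genes of growth and division passed in both directions, on lists with few named probe sets. Of all single-symbol probe sets 15.4% passed, and whether these lists differ from that share was not tested. In the list of DNA replication and repair, 2 of 10 named probe sets rose and none fell, with a median of 0.104. Orc2l, a subunit of the origin recognition complex, read 0.15 and 0.16 in KO_223mut and -0.20 and -0.23 in WT_MIG (0.37 ± 0.05, adjusted p = 0.0192), and Pold2, a subunit of DNA polymerase delta, rose by 0.37 too (adjusted p = 0.0211, and 0.0778 without the block). In the list of mitosis and cell cycle, 2 of 8 rose and 1 fell. Cenpn, a kinetochore protein, rose by 0.50 ± 0.06 (adjusted p = 0.00592), and Cdca7, a Myc and E2F target, by 0.33 ± 0.06 (adjusted p = 0.0394, and 0.116 without the block).

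The fall was the larger change: E2f2, a transcription factor of the E2F family, read -0.23 and -0.25 in KO_223mut and 0.68 and 0.52 in WT_MIG (-0.84 ± 0.08, adjusted p = 0.00324). None of 11 ribosome biogenesis genes passed with limma, although 7 had an unadjusted p under 0.05, which 47.3% of all single-symbol probe sets had, and all 11 differences were positive (median 0.167). Bop1, needed to mature the large ribosomal subunit, came nearest at 0.35 (adjusted p = 0.0598). None of 9 probe sets of ribosomal proteins passed (2 at an unadjusted p under 0.05), with a median of -0.0361. With limma, stem and progenitor genes gave 0 of 4 (3 at an unadjusted p under 0.05): Hoxa10 at 0.14, Lmo2 at 0.29, Ly6a at -0.14 and Flt3 at -0.46.

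Transporters gave mixed results, with 2 of 6 named probe sets higher and 1 lower. Beside Slc29a1, the lactate carrier Slc16a1 was higher by 0.30 (adjusted p = 0.0407, and 0.115 without the block). Aqp8, a water channel, read 0.01 and -0.13 in KO_223mut and 0.74 and 0.62 in WT_MIG (-0.74 ± 0.10, adjusted p = 0.0124). Of 7 lysosomal genes Cd68 alone passed, and Ctsd, cathepsin D, had a difference of -0.11.

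Of genes reported as miR-223 targets, 7 are named, and 2 rose and 1 fell (median 0.273). Tmem47 accounts for the largest rise, and Vps53, part of a complex that tethers vesicles to the Golgi, rose by 0.30 ± 0.05 (adjusted p = 0.0386), a call lost without the block (adjusted p = 0.149). Nlrp3, whose messenger the guide is known to repress, was lower and not higher in KO_223mut. In KO_MIG its difference from WT_MIG was -0.46, also downward, and did not pass (limma adjusted p = 0.0738). Igf1r, a growth factor receptor tyrosine kinase, read -0.17 and 0.12 in KO_223mut, 0.01 and -0.01 in KO_starmut, 0.16 and 0.15 in KO_MIG and -0.43 and -0.17 in WT_MIG. Its difference from WT_MIG was 0.27 ± 0.09 in KO_223mut and 0.46 ± 0.09 in KO_MIG, neither past the test (adjusted p = 0.21 and 0.105). Lmo2, a haematopoietic transcription cofactor, gave 0.29 in KO_223mut and 0.41 in KO_MIG (adjusted p = 0.121 and 0.0824), and Rasa1 and Sp3 gave 0.15 and 0.12 in KO_223mut. KO_starmut minus KO_223mut was 0.03 in Igf1r, -0.03 in Vps53, -0.10 in Lmo2 and 0.50 in Nlrp3, none past the test after adjustment.

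Markers of other cell types that the marrow could hold were few among the named genes. Cd96, a receptor of T and NK cells, rose by 0.61 ± 0.08, while Eomes, a transcription factor of those cells, differed by 0.02. Cd80, a costimulatory molecule of antigen-presenting cells, fell by 0.77 ± 0.09, whereas Cd74, the invariant chain of MHC class II, differed by 0.10. With limma, no call was made on the fibroblast and stromal list (2 named, Mmp2 at 0.14 and Dcn at 0.19; 1 at an unadjusted p under 0.05), nor for Cd200r3 of mast cells and basophils (0.34, adjusted p = 0.108) or Ccr3 of eosinophils (0.04, adjusted p = 0.804). The B-lineage list gave 0 calls of 2 with limma (both at an unadjusted p under 0.05), and on the complement and Fc list Cd55 was the 1 call of 3. No gene of the erythroid and megakaryocyte list is named, and the part that shifts in cell makeup have in these results was not tested. Interferon response genes gave 0 calls of 4 with limma (1 at an unadjusted p under 0.05). Immediate early and stress genes gave 0 of 3 (all 3 at an unadjusted p under 0.05), which were Fos at -0.38, Hmox1 at -0.45 and Herpud1 at 0.28. Among all single-symbol probe sets 47.3% had such an unadjusted p.

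**Figure D4:**
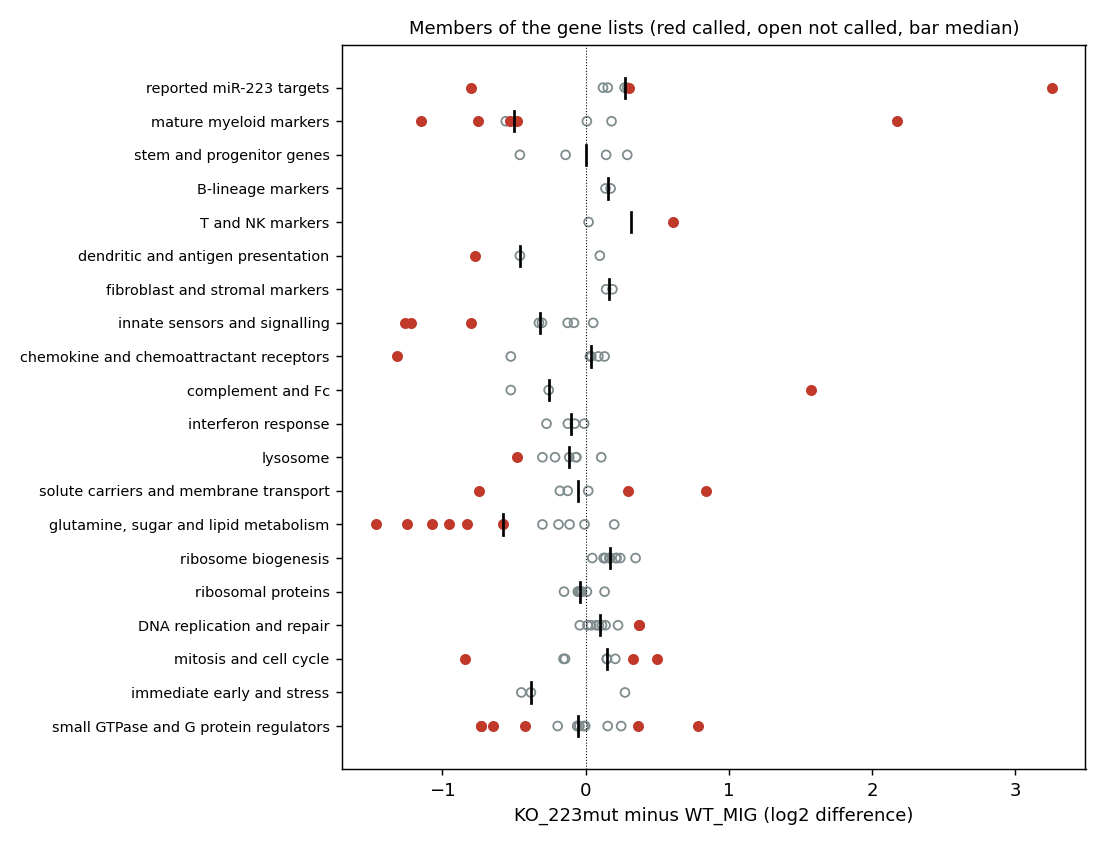
Log2 difference of KO_223mut minus WT_MIG (x axis) for the named probe sets of each gene list with more than 1 of them (rows), with filled points for those past the adjusted threshold and a bar at the list's median. The metabolism list has 6 of 11 lower with a median of -0.574, and ribosome biogenesis 11 small positive differences and no call.

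To separate what stayed from what was new, the same fit gave KO_MIG against WT_MIG, in which 277 probe sets passed (0.96%; 39 without the block, 0.135%). Both comparisons use the same WT_MIG arrays, so their agreement is partly built in. Of the 732, 247 passed in both with the same sign, 89 higher and 158 lower, and they include 57 named genes. Another 485 passed with KO_223mut only, 161 higher and 324 lower, with 101 named genes, and 30 passed with KO_MIG only. Of the 485, 478 had the same sign in KO_MIG against WT_MIG. An unadjusted p under 0.05 in that comparison (limma) was found for 382 of them, and for 2924 of all 28853 probe sets. Missing the threshold with KO_MIG therefore does not make a difference new. Without the block, 39 passed in both and 169 with KO_223mut only.

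Of the 247 probe sets called in both, 104 had an unadjusted p under 0.05 (limma) between KO_223mut and KO_MIG. Among the named genes with the largest differences from WT_MIG, some lay close in both arms and others did not. BC018473 differed from WT_MIG by -5.31 in KO_223mut and -5.32 in KO_MIG, and by 0.01 between the arms (95% interval -0.13 to 0.15). Tmem47 differed by 3.26 in KO_223mut and 3.14 in KO_MIG, Chi3l1 by 2.18 and 2.10, and 1700112E06Rik by 1.98 and 1.96, in the same order of groups. The intervals of the arm difference of these 3 genes reached from -0.21 at the lowest to 0.35 at the highest and all included 0. Cd55 differed by 1.58 in KO_223mut and 1.31 in KO_MIG, a gap of 0.27 (0.04 to 0.50) that did not pass after adjustment. On the lower side Nt5e was at -1.69 in KO_223mut and -1.25 in KO_MIG, a gap of -0.44 (-0.82 to -0.06). Apoc2 and Tlr7 had gaps of -0.39 (-0.63 to -0.16) and -0.34 (-0.64 to -0.04), and none of these passed after adjustment. Gaps whose interval included 0 were -0.25 in Ccr1, -0.21 in Tlr13, -0.17 in Zcchc3 and -0.12 in Frmd4b. Tmem171, at -0.95 in KO_223mut and -0.87 in KO_MIG, and Fgd6, at -0.73 in KO_223mut and -0.69 in KO_MIG, lay close in both arms.

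The test of novelty is the difference between the knockout arms themselves. No probe set passed between KO_223mut and KO_MIG after adjustment with limma (percentage called 0, with the block or without it, and lowest adjusted p 0.263 with it). At an unadjusted p under 0.05 there were 2484 with the block (8.61%; 25.5% of single-symbol probe sets) and 1171 without it, set against the same 1443. Of the 485 that passed with KO_223mut only, 300 had such an unadjusted p, 62 of them single-symbol probe sets. The 485 were selected on the same arrays by passing with KO_223mut and not with KO_MIG. That selection favours a gap between the arms, so the count of 300 is no evidence of novelty. The genes below are therefore candidates, chosen by the unadjusted p between the arms, and not established changes.

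Mir142 had the largest gap among them. Its probe set, for a microRNA gene of blood cells, read -0.49 and -0.57 in KO_223mut, -0.12 and -0.09 in KO_starmut, 0.09 and 0.26 in KO_MIG and 0.56 and 0.21 in WT_MIG. KO_223mut was lower than WT_MIG by a log2 difference of -0.91 ± 0.11 (adjusted p = 0.0094), KO_MIG by one of -0.21 (adjusted p = 0.622), and KO_223mut lay below KO_MIG by one of -0.70 (-0.97 to -0.43, unadjusted p = 0.000418). What the Mir142 probe set covers was not looked up here, so its value is not read as a level of the mature strands printed above. KO_223mut was the lowest group, and KO_MIG and WT_MIG overlapped.

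Fmnl2 read -0.53 and -0.47 in KO_223mut, 0.08 and 0.12 in KO_MIG and 0.13 and 0.17 in WT_MIG. Its difference from KO_MIG was -0.60 (-0.78 to -0.41), and KO_MIG differed from WT_MIG by -0.05. Pilra, an inhibitory receptor of myeloid cells, read -0.39 and -0.32 in KO_223mut, 0.08 and 0.22 in KO_MIG and 0.14 and 0.22 in WT_MIG, with an arm difference of -0.51 (-0.67 to -0.35). In both genes KO_MIG sat at the level of WT_MIG and KO_223mut below them.

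In other candidates KO_MIG lay in between. Syne2, which codes for the nuclear envelope protein nesprin, fell in 4 probe sets in KO_223mut against WT_MIG, by 0.78, 0.72, 0.64 and 0.41 (the last with an adjusted p of 0.0612 without the block). The probe set with the largest fall read -0.26 and -0.14 in KO_223mut, 0.14 and 0.30 in KO_MIG and 0.56 and 0.59 in WT_MIG. KO_MIG against WT_MIG came near the threshold in that probe set (limma adjusted p = 0.052) and in E2f2 (0.0598). E2f2 lay below KO_MIG by a log2 difference of -0.36, Plin2, a coat protein of lipid droplets, by one of -0.37, Abca13, a lipid transporter, by one of -0.38, and 5031414D18Rik, now Rubcnl, an autophagy factor, by one of -0.39. The call of Abca13 against WT_MIG was lost without the block (adjusted p = 0.0678).

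Among named candidates that were higher, Cd96 had the largest arm difference, at 0.44 and 0.19 in KO_223mut, -0.05 and -0.10 in KO_MIG and -0.31 and -0.29 in WT_MIG, with an arm difference of 0.39 (0.21 to 0.56). Psg17, which stood higher over WT_MIG at 0.90, had an arm difference of 0.37 (0.09 to 0.65). Cd33 lay below KO_MIG by a log2 difference of -0.35 and was at -0.17 in KO_MIG relative to WT_MIG.

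Some genes called in both comparisons had a larger arm difference than most of the candidates named above. Fam49a stood at -0.26 and -0.31 in KO_223mut, 0.30 and 0.24 in KO_MIG and 0.99 and 0.84 in WT_MIG, and KO_223mut lay below KO_MIG by a log2 difference of -0.56 (-0.70 to -0.42, unadjusted p = 2.64e-05). Mgam lay below KO_MIG by one of -0.58 (-0.77 to -0.39), and Itgam by one of -0.56 (-0.75 to -0.36). In all 3 genes both KO_223mut arrays lay below both KO_MIG arrays, and these below both WT_MIG arrays, while the mean of KO_starmut lay between those of KO_223mut and KO_MIG. KO_223mut thus lay farther from WT_MIG than KO_MIG did, though no arm difference passed after adjustment.

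Returns toward wild type were looked for among the 30 probe sets that passed only in KO_MIG. An unadjusted p under 0.05 between the arms (limma) was found for 14 of them, a count that this selection also favours. Only 9 of the 30 carry a single symbol. Of these 9, 2 had such a p, and both lost their KO_MIG call without the block (adjusted p = 0.0945 for Rnf2 and 0.188 for Igll1). Probe sets called in both arms were not counted, though D14Ertd449e among them lay nearer WT_MIG in KO_223mut than in KO_MIG. Rnf2, a Polycomb ubiquitin ligase, read 0.03 and 0.08 in KO_223mut, -0.12 and -0.10 in KO_MIG and 0.40 and 0.36 in WT_MIG, with differences from WT_MIG of -0.32 in KO_223mut (adjusted p = 0.0545) and -0.49 in KO_MIG. Igll1, a chain of the surrogate light chain of early B cells, read 0.04 and 0.09 in KO_223mut, 0.23 and 0.28 in KO_MIG and -0.11 and -0.04 in WT_MIG, with differences of 0.14 in KO_223mut (adjusted p = 0.265) and 0.33 in KO_MIG. Ly6a, the Sca-1 antigen, differed from WT_MIG by -0.14 in KO_223mut and -0.72 in KO_MIG, neither past the test, and by 0.58 between the arms (unadjusted p = 0.00308).

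**Figure D5:**
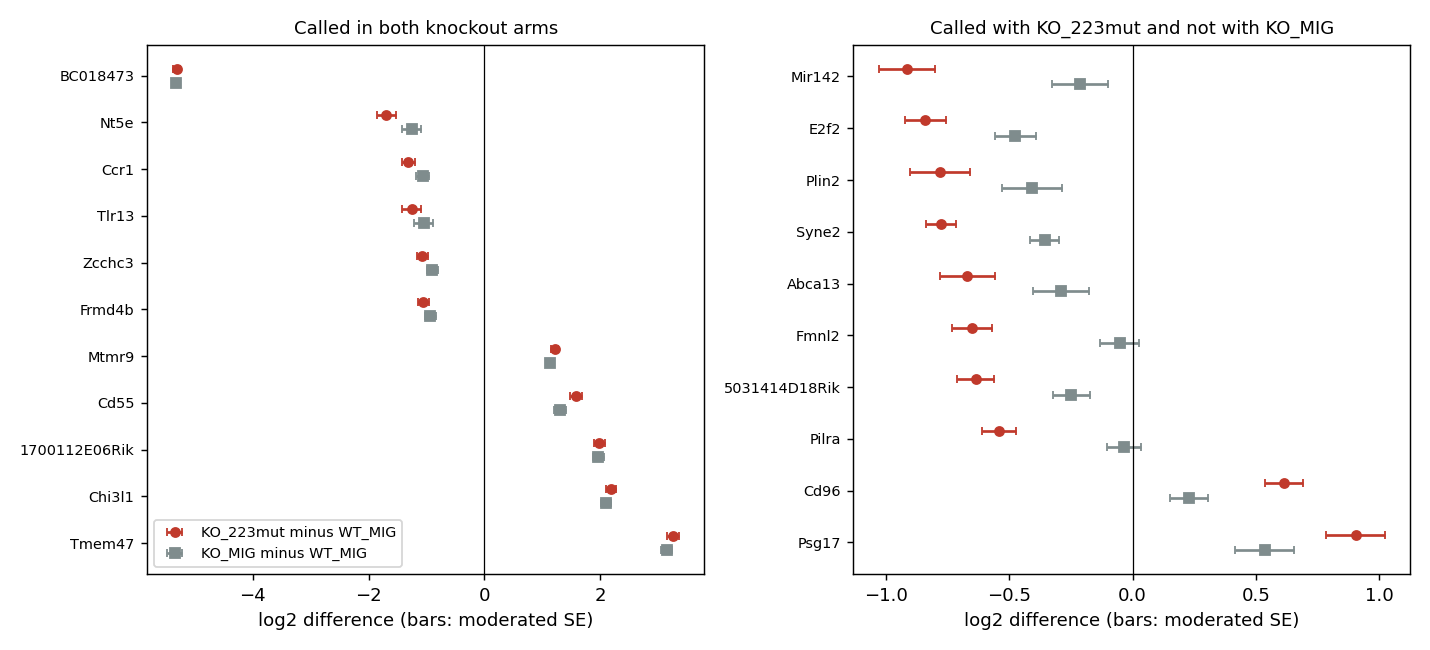
Named genes that stayed different (left) and candidates for new differences (right), in rows, with the log2 difference from WT_MIG on the x axis for KO_223mut (circles) and KO_MIG (squares), 1 probe set per gene, and bars for the SE; the panels have different x scales. BC018473 and Tmem47 have nearly equal values in both knockout groups, while Mir142 is at -0.91 in KO_223mut and -0.21 in KO_MIG, and Fmnl2 at -0.65 in KO_223mut and -0.05 in KO_MIG.

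The knockout cells with the other mutant vector were set against KO_223mut as well. A single probe set passed between KO_starmut and KO_223mut (0.00347%; 0 without the block, and 2809, or 9.74%, at an unadjusted p under 0.05), and it has no gene name. Of the 78 probe sets chosen for naming, 31 had an unadjusted p under 0.05, 19 higher and 12 lower in KO_starmut; among all single-symbol probe sets 24% had one. Outside these, Ly6a was higher in KO_starmut than in KO_223mut by 1.21 (unadjusted p = 3.41e-05), Anpep by 0.71 (unadjusted p = 0.0176) and Mmp12 by 0.70 (unadjusted p = 0.000404). The largest positive differences among the 78 were those of Psg17 at 0.60, Rgs1 at 0.59, Cd200r3 and Ccr1 at 0.58. Itgam, at 0.47, and Nlrp3, at 0.50, were also higher in KO_starmut. The largest negative ones were those of Rassf8, at -0.53 (unadjusted p = 0.000108), and Nav1, at -0.31 (unadjusted p = 0.000772). Fam49a differed by 0.04 and Syne2's probe set with the largest fall stood at -0.22 and -0.16 in KO_starmut. None of these differences passed after adjustment.

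Of the 157 called genes, 151 could be placed in the RefSeq gene order, and 6 pairs had at most 1 gene between them. How many such pairs as many other genes would give was not tested, so the count is no evidence of clustering. The genes Btf3l4, Txndc12 and Kti12 follow each other directly in that order, and their probe sets were lower by log2 differences of -0.79, -0.60 and -0.44 in KO_223mut. Genes were placed by symbol and not by the position of their probes, so whether the Btf3l4 probe set measures that locus was not tested. Kti12 passed only with the block (adjusted p = 0.0331, and 0.0702 without it). D330045A20Rik and Rnf128, also direct neighbours, were both higher, while Cdyl2 and Cenpn, with 1 gene between them, had opposite signs at -0.35 and 0.50, where Cdyl2 passed only with the block (adjusted p = 0.041, and 0.157 without it).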

How the data were processed

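RNA of 8 samples was hybridised to Affymetrix Mouse Gene 1.0 ST arrays. Per the file headers, the authors made log2 signals with RMA16 (annotation release 31 on mouse build mm9) and took each probe set's median off; the largest remaining median is 7e-07. Their deposited gene list holds 1264 probe sets between the 20th and the 100th percentile of signal and with a p-value, not corrected, below 0.05 by one-way analysis of variance over the groups; its deposited absolute fold ratio and signed fold score were not used, and its deposited log2 differences lie within 4.6e-07 of those computed here. No level over background is left, so dim probe sets could not be removed, and the number of arrays limits the precision. 9 blank cells, all of KO_starmut replicate 3, were dropped from the fit.

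The 4 groups and the replicate number were fitted in limma 3.58.1 (R 4.3.3) over all 8 arrays with 3 residual degrees of freedom, two-sided, with Benjamini-Hochberg adjustment over 28853 probe sets. The contrast is defined with same-numbered arrays paired; once group means were taken off, same-numbered arrays correlated in each of the 6 group pairs, by 0.36 to 0.533. The scripts were checked on simulated data. Alternatives left out the block or made it random, changed the scaling, the variance estimate or the probe set averaging, used 2 groups only, or left out an array.

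Members, lists and tests were chosen with earlier results of these data known. Named in full were the 15 largest called differences in each direction without overlap, the 12 largest that stayed, the 12 largest candidates for new, up to 8 for reduced, and the called members of the lists. The 23 lists hold 935 genes, 119 of them named; a gene that the rule takes is not reported here. Of 1049 single symbols, 1012 matched RefSeq (GRCm38.p6), 99 under another current symbol.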

Additional observations from a re-analysis of the deposited data

Results flagged for a closer look

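The single probe set that passed between KO_starmut and KO_223mut, number 10458589, has no gene name in the files. It read 1.21 and 0.68 in KO_starmut and -0.05 and -0.31 in KO_223mut, against 0.21 and -0.16 in KO_MIG and 0.05 and -0.21 in WT_MIG. It was picked out because the effects of the 2 mutant vectors differ in a direct test, by 1.12 ± 0.0792 (SE, limma adjusted p = 0.0457), and it did not pass without the replicate block. KO_223mut differed from WT_MIG by -0.10 in it, which did not pass. Groups of 2 arrays are too small for a check for outlying samples.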

How the results depend on the processing

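Against WT_MIG, KO_223mut gave 732 calls with the replicate block, 208 with no replicate block, 409 after quantile normalization and 112 with the arrays of the 2 groups only. Leaving out 1 array gave 178 (without KO_223mut replicate 2) to 605; it was 283 without KO_223mut replicate 3, 244 and 417 without WT_MIG replicates 2 and 3, and 399 without either KO_starmut array. Calls of KO_MIG against WT_MIG were 277 with the block, 39 without it, 64 after quantile normalization, 5 with 2 groups only, and 45 to 203 with 1 array left out. KO_223mut against KO_MIG went from 0 to 2 after quantile normalization and 0 to 2 with 1 array left out. KO_starmut against KO_223mut went from 1 to 0 without the block, with a random block, after quantile normalization and with 2 groups only, and to 0 to 7 with 1 array left out. Centring, a robust variance and averaging by symbol gave 720 to 743 calls of KO_223mut against WT_MIG. Lower calls were 73.6% without the block and 85.7% with 2 groups only. Of the 60 called probe sets among the 78 chosen by rule, 52 kept their call without the block and 26 in all 15 alternatives, and none changed sign. With 1 array left, a group's spread is taken from the other groups. A filter on dim probe sets was not run, since levels over background are not in the values.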

Other observations

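Other microRNA genes with a probe set in the deposited list differed little between KO_223mut and WT_MIG and none passed. Mir23b was at -0.27, Mir449c at -0.15, Mir26b at -0.14, Mir326 at -0.12, Mir186 at -0.11 and Mir673 at 0.25.

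Most probe sets that differed by more than 1 carry no single gene name, 90 of 109. The largest without a name were probe set 10517791, at -0.28 and -0.75 in KO_223mut and 1.48 and 1.12 in WT_MIG (log2 difference -1.81, adjusted p = 0.000881, and 0.057 without the replicate block), and probe set 10349648, at 0.03 and -0.12 in KO_223mut and -2.77 and -1.67 in WT_MIG (2.17, adjusted p = 0.0129). Probe sets 10415438 and 10439321 were lower by log2 differences of -1.65 and -1.60, and 10557470 and 10575693 higher by 2.07 and 1.81; without the block 10415438 and 10557470 did not pass (adjusted p = 0.118 and 0.132).

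Jhdm1d, a histone demethylase gene with 2 probe sets in the list, was lower in both, with log2 differences of -0.70 and -0.65 (adjusted p = 0.00937 and 0.00424). D14Ertd449e, with 3 probe sets, was lower in KO_223mut by differences of -0.73, -0.73 and -0.70, and its differences in KO_MIG from WT_MIG were -0.93, -0.94 and -0.90.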
